A study of Mus musculus with 26 samples.

Results

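The 10 genes described here regulate the Hippo pathway and the first lineage choice of the mouse embryo: Cdx2, Gata3, Eomes, Tfap2c, Tead4, Yap1, Wwtr1, Lats1, Lats2 and Amotl2. They were chosen by name, for their known roles, from the 55487 genes of the expression table, and all 10 were found there. Their RNA was measured in 9 single blastomeres of 8-cell embryos by scRR-seq, a method in which the chromatin of a lysed cell is held on magnetic beads for DNA sequencing while its total RNA is sequenced from the supernatant. The embryos came from in vitro fertilization with oocytes and sperm of C57BL/6 mice, were grown in culture and were taken apart by hand, and neither the labels nor the methods name an engineered allele or a treatment. Embryo 1 gave 3 of the cells (cells 1, 6 and 7) and embryo 2 gave 6 (cells 2, 3, 5, 6, 7 and 8).

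A second division of the cells is technical. Each cell carries a closing number, and the sample list of the study places numbers 11 to 17 in the protocol scRR3 and numbers 20 to 25 in scRR1. The scRR1 protocol uses less lysis buffer. By the study's account, it covered embryo transcripts more towards their 3′ ends and found fewer of them than scRR3 did. The first range holds cell 1 of embryo 1 and cells 2 and 3 of embryo 2, and the second holds the other 6 cells. In the DNA of the same cells, at most 3.54% of the scored genome carried the replicated state in embryo 1 and 62.4 to 80.5% did in embryo 2. The cells of embryo 1 have a uniform copy number, and the study describes such cells as G1 or G2/M, so their unreplicated score does not tell the time before S phase from the time after it. Embryo and replication state therefore divide the cells in the same way and cannot be told apart. Each embryo is 1 biological sample, so no test between embryos was possible, no p-value is given, and SDs describe the spread between cells.

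In the preimplantation embryo, the Hippo pathway tells outer cells from inner cells. Where it is active, the kinases LATS1 and LATS2 phosphorylate the coactivators YAP and TAZ, encoded by Yap1 and Wwtr1, and keep them in the cytoplasm, with angiomotin proteins such as AMOTL2 aiding the step. In outer, polarized cells this phosphorylation is low, YAP and TAZ enter the nucleus and bind TEAD4, and the trophectoderm genes Cdx2 and Gata3 are switched on. The pathway acts largely through phosphorylation of these proteins, which were not measured, so the levels below show which of its components were present as RNA and not whether it was active.

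RNA of the transcription factors and coactivator that precede the lineage choice (Tfap2c, Tead4, Yap1) was abundant in all 9 cells. That of the kinases was lower than these, and that of the lineage genes Cdx2 and Eomes was patchy. On the scale of TPM, a unit that corrects for transcript length and sums to the same total in each cell, the mean levels were 83.2 ± 18.4 for Tfap2c, 84.7 ± 38.03 for Tead4 and 60.5 ± 32.6 for Yap1 (SD, 9 cells). In every cell, 6 of the 10 genes were above 1 TPM, against 52.9% of the 13648 genes with a mean above 1 TPM and 13% of all genes in the table. Cdx2 was above 1 TPM in 3 cells and Eomes in 4.

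**Figure D1:**
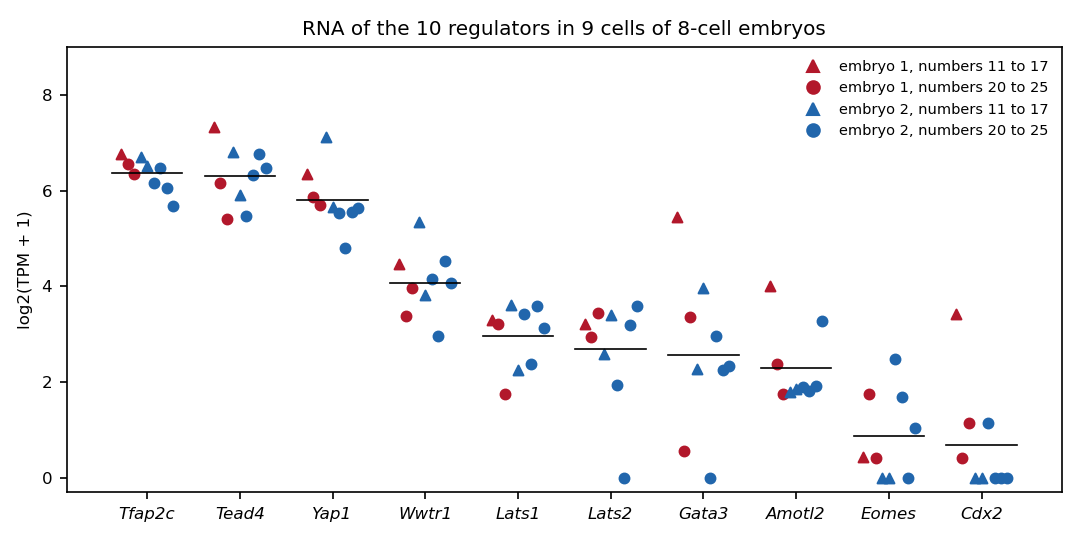
Level of each of the 10 genes in the 9 cells, as log2(TPM + 1), with genes ordered by their mean (black line) and each point 1 cell. Red marks embryo 1 and blue embryo 2, and triangles mark numbers 11 to 17 and circles numbers 20 to 25. Tfap2c, Tead4 and Yap1 sit highest, Eomes and Cdx2 lowest, and the red triangle (embryo 1 cell 1) tops Tead4, Gata3, Amotl2, Tfap2c and Cdx2.

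Ordered by mean log2(TPM + 1), the ladder ran Tfap2c, Tead4, Yap1, Wwtr1, Lats1, Lats2, Gata3, Amotl2, Eomes, Cdx2. Each step was measured within cells, as the difference between neighbouring genes. Yap1 exceeded Wwtr1 by 1.73 ± 0.40 on the log2 scale (SD over 9 cells) and was the higher of the pair in 9 of 9 cells. Wwtr1 exceeded Lats1 by 1.11 ± 0.64, also in 9 of 9 cells. Amotl2 exceeded Eomes by 1.44 ± 1.23, in 8 of 9 cells. The other 6 steps were smaller than their SD between cells, so Tfap2c, Tead4 and Yap1 did not separate from each other, nor did Lats1, Lats2, Gata3 and Amotl2, nor Eomes and Cdx2.

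Some transcripts of these genes differ by whole coding exons, and full-length libraries make the forms visible. The exons are shown because the shares of the forms varied widely between cells. They are read from the GRCm38 (mm10) genome at the exon positions of GENCODE M21, 5′ to 3′ on the strand of the gene. The Yap1 exon, chr9:7950492-7950539 on the minus strand, is 48 bases long. It is present in Yap1-201 and Yap1-210 and skipped in Yap1-202, and its length is a multiple of 3, so the reading frame is kept either way. The Tead4 exon, chr6:128247960-128248088 on the minus strand, is 129 bases long, also a multiple of 3. It is present in Tead4-201 and skipped in Tead4-203. These 2 transcripts also differ at both ends, spanning chr6:128227143-128300813 and chr6:128224288-128275577. For Tfap2c, the transcripts Tfap2c-201 and Tfap2c-206 begin their coding sequence in different first exons, at chr2:172549835-172549882 and chr2:172551057-172551221 on the plus strand. The capitals in the Tfap2c exons mark the start codon.
Yap1 exon: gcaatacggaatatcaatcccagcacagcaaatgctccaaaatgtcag
Tead4 exon: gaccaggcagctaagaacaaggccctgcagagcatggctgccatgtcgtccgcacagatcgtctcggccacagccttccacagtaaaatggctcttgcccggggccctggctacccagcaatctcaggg
Tfap2c-201 first coding exon: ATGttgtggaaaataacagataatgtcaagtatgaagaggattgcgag
Tfap2c-206 first coding exon: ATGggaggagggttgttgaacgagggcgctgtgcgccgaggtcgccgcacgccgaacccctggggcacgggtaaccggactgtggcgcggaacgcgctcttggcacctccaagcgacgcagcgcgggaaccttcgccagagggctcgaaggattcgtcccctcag

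A short stretch of 4 promoters is also shown, because it holds the letters at which TEAD proteins are known to bind. The windows of RefSeq (build GRCm38.p6, 250 bases before to 50 after the start of a gene) were searched for GGAATG on both strands, a motif chosen after the windows had been seen. A window was found for 8 of the 10 genes, and Tead4 and Tfap2c had none. The letters occurred in 5 of the 10 windows of these genes, which belong to 4 genes, and in 14.7% of the 32851 windows of all genes. A match is a description of the sequence, not a bound site. The capitals mark the motif or its reverse complement CATTCC, and the position is that of its first base relative to the RefSeq start that defines the window, which for Amotl2 and Lats2 is not the outer end of the gene given below.
Wwtr1, chr3:57576029-57576058, minus strand, at -136: ggtaaactcaaaGGAATGcagataggcgct
Yap1, chr9:8004720-8004749, minus strand, at -141: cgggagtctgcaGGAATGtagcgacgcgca
Amotl2, chr9:102717727-102717756, plus strand, at -65: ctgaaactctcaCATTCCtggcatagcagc
Lats2, chr14:57746102-57746131, minus strand, at 4: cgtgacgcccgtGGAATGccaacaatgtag

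Cdx2 (ENSMUSG00000029646.3, chr5:147300805-147307270, minus strand) encodes the homeobox factor that specifies trophectoderm. In embryo 1 it was at 9.80 TPM in cell 1, 0.34 in cell 6 and 1.22 in cell 7. In embryo 2 it was listed at 0 in cells 2, 3, 6, 7 and 8 and stood at 1.22 in cell 5. Cell 1 of embryo 1 was thus the only one of the 9 cells above 1.22 TPM. All of this signal was assigned to the sole transcript, Cdx2-201.

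Gata3 (ENSMUSG00000015619.10, chr2:9857078-9890034, minus strand), a zinc finger factor that acts beside Cdx2 in trophectoderm, was found more widely. It was at 42.5, 0.48 and 9.22 TPM in cells 1, 6 and 7 of embryo 1. It was at 3.86, 14.6, 0, 6.77, 3.79 and 4.05 TPM in cells 2, 3, 5, 6, 7 and 8 of embryo 2. Cell 1 of embryo 1 was again highest, and the values of embryo 2 lay within the range of embryo 1 except in cell 5. Of the 42.5 TPM in embryo 1 cell 1, however, 27.7 came from Gata3-205, a 243-base noncoding transcript that reached only 0.29 TPM in embryo 2 cell 3 and 0 elsewhere. The leading coding transcript, Gata3-201, was at 13.3 TPM in embryo 1 cell 1 and at 14.3 in embryo 2 cell 3. On coding transcripts alone, a measure added after the data were seen, Gata3 stood at 14.8 TPM in the first of these cells and 14.3 in the second, so they were nearly level.

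Eomes (ENSMUSG00000032446.14, chr9:118478212-118486132, plus strand), a T-box factor of the later trophoblast, was scarce. It was at 0.35, 2.37 and 0.34 TPM in cells 1, 6 and 7 of embryo 1. In embryo 2 it was listed at 0 in cells 2, 3 and 7, and stood at 4.59, 2.23 and 1.05 TPM in cells 5, 6 and 8. Eomes was thus above 1 TPM in 4 cells, all with numbers 20 to 25, and the cell with the most Cdx2 was not among them. Cells of both embryos overlapped.

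Tfap2c (ENSMUSG00000028640.11, chr2:172549593-172558622, plus strand) encodes AP-2 gamma, a factor that acts upstream of Cdx2 and of the polarity genes. It varied least among the 10 genes. It ranged from 80.1 to 107 TPM in embryo 1 and from 50.3 to 103 in embryo 2, with a median of 79.4 in embryo 2. The difference of embryo 2 minus embryo 1 was -0.29 in mean log2(TPM + 1), within its SD between cells of 0.33. Of the 80.1 TPM in embryo 1 cell 7, however, 38.65 came from Tfap2c-204, a noncoding transcript listed at 0 in all other cells. On coding transcripts alone that cell was at 41.4 TPM. The difference between embryos was then 0.03, with an SD between cells of 0.46.

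Tead4 (ENSMUSG00000030353.15, chr6:128224288-128300823, minus strand), the DNA-binding partner of YAP required for trophectoderm, was at 161, 70.9 and 41.2 TPM in cells 1, 6 and 7 of embryo 1. In cells 2, 3, 5, 6, 7 and 8 of embryo 2 it was at 111, 59.1, 43.2, 79.3, 109 and 87.8 TPM. The highest and the lowest value both belonged to embryo 1, and embryo 2 lay between them. The mean difference was -0.01 with an SD between cells of 0.68, and it was 0.51 without embryo 1 cell 1.

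The coactivators came next. Yap1 (ENSMUSG00000053110.13, chr9:7931999-8004596, minus strand) was at 80.6, 57.3 and 51.1 TPM in cells 1, 6 and 7 of embryo 1. In cells 2, 3, 5, 6, 7 and 8 of embryo 2 it was at 139, 49.3, 45.6, 27.1, 46.2 and 48.6 TPM. Embryo 2 cell 2 stood above all other cells and embryo 2 cell 6 below them. The forms differed in this respect. Yap1-210 was at 63.4 TPM there and at no more than 19.4 TPM in any other cell. The main form Yap1-202 was at 51.2 TPM there and at 50.6 in embryo 1 cell 7.

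Wwtr1 (ENSMUSG00000027803.14, chr3:57455649-57575910, minus strand), which encodes TAZ, followed a similar outline at a lower level. It was at 20.99, 9.45 and 14.8 TPM in cells 1, 6 and 7 of embryo 1, and at 39.8, 13.1, 16.7, 6.76, 22.2 and 15.9 TPM in cells 2, 3, 5, 6, 7 and 8 of embryo 2. Its highest and lowest cells were the same as those of Yap1. Over the 9 cells, which share 2 embryos and 2 number ranges, Pearson's r of log2(TPM + 1) between Yap1 and Wwtr1 was 0.82, Spearman's rho was 0.37, and r was 0.63 without embryo 2 cell 2. These correlations are descriptions of 9 points.

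The kinases were close to each other. Lats1 (ENSMUSG00000040021.13, chr10:7681214-7716460, plus strand) ranged from 2.37 to 8.88 TPM in embryo 1 and from 3.8 to 11.3 in embryo 2. Lats2 (ENSMUSG00000021959.16, chr14:57689662-57758388, minus strand) ranged from 6.73 to 9.87 TPM in embryo 1 and from 0 to 11.1 in embryo 2, where cell 6 was listed at 0. Lats1 exceeded Lats2 in 6 of 9 cells, by 0.26 ± 1.27 on the log2 scale, so their order was not resolved. Embryos overlapped for both genes.

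Amotl2 (ENSMUSG00000032531.15, chr9:102716672-102733418, plus strand), an angiomotin that links junctions to LATS and is itself a known YAP target, was at 15.02, 4.20 and 2.37 TPM in cells 1, 6 and 7 of embryo 1. In embryo 2, cells 2, 3, 5, 6, 7 and 8 were at 2.49, 2.65, 2.74, 2.54, 2.80 and 8.72 TPM. In embryo 2, 5 of the 6 cells were thus between 2.49 and 2.80 TPM, and cell 8 stood apart. The even level hid different transcripts. The coding form Amotl2-203 was at 12.5 TPM in embryo 1 cell 1, 6.65 in embryo 2 cell 8, and 0 in cells 2 and 6 of embryo 2, where other forms were listed instead. On coding transcripts alone, Amotl2 was at 0.91, 0.11 and 0.33 TPM in cells 2, 3 and 6 of embryo 2, and the number of genes above 1 TPM in every cell was 5.

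Between the embryos, 1 of the 10 genes differed by 2-fold or more, that is by at least 1 in mean log2(TPM + 1). Cdx2 was lower in embryo 2 by -1.48, beyond its pooled SD between cells of 0.93, and no gene was 2-fold higher. Among the 13648 genes with a mean above 1 TPM, 10.7% were 2-fold lower in embryo 2 and 7.69% higher, so 1 of 10 is near the background. The cells of the embryos overlapped for all 10 genes, where 2.51% of all genes were lower in every cell of embryo 2 and 0.843% higher. The median difference over the 10 genes was -0.27, against -0.04 over all genes, and 8 of the 10 differences were negative, as were 52.4% of those of all genes. Tead4 and Eomes, among the 8, lay within 0.01 of 0, and 6 of 10 were negative after rescaling to nuclear or protein-coding genes or centring. Gata3 differed by -0.82, Lats2 by -0.75 and Amotl2 by -0.61, each within its pooled SD of 1.71, 1.14 and 0.79, and Yap1, Wwtr1 and Lats1 by -0.25, 0.21 and 0.31. Within numbers 11 to 17 the difference of Cdx2 was -3.43, and within numbers 20 to 25 it was -0.50. The call of Cdx2 rested on a single cell: without embryo 1 cell 1, no gene reached 2-fold and the median difference was -0.01.

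**Figure D2:**
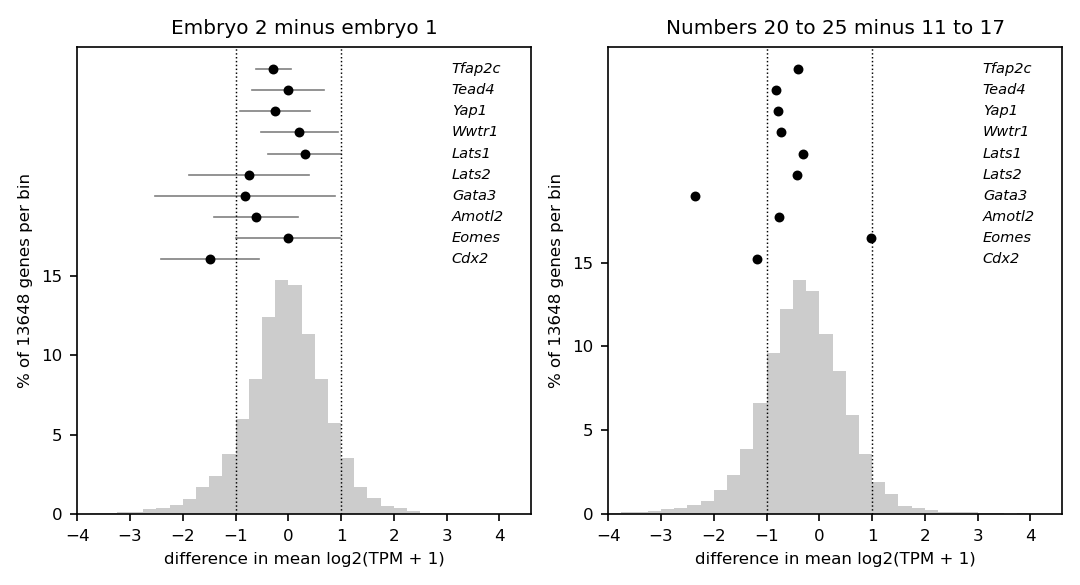
Differences in mean log2(TPM + 1) for the 10 genes (points) above the distribution over 13648 genes (grey, percent of genes per bin of 0.25). The left panel plots embryo 2 minus embryo 1 with lines of 1 pooled SD between cells, the right panel numbers 20 to 25 minus 11 to 17 without error, and dotted lines mark 2-fold. Cdx2 at -1.48 is the only gene past 2-fold on the left, and Gata3 at -2.36 and Cdx2 at -1.18 are past it on the right.

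The cells were then compared by protocol range. Taking numbers 20 to 25 minus 11 to 17 within each embryo and then the mean of both, Gata3 was lower by -2.36 and Cdx2 by -1.18, where 17.2% of all genes were 2-fold lower and 4.87% higher. Gata3 was lower by -1.62 on coding transcripts alone. In all, 9 of the 10 differences were negative, as were 66.3% of those of all genes, and the median was -0.74, against -0.31 over all genes. The value of embryo 1 compares a single cell with 2 others. Within embryo 2 alone, 6 of the 10 differences were negative and the median was -0.30, against -0.26 over all genes. There the difference of Cdx2 was 0.29, since both cells with numbers 11 to 17 were listed at 0. Gata3 kept its direction in both embryos, with -3.48 in embryo 1 and -1.23 in embryo 2. In embryo 2 its ranges overlapped, at 3.86 and 14.6 TPM against 0 to 6.77 TPM. Tfap2c, Tead4, Yap1, Wwtr1 and Lats2 were also lower in both embryos, and Eomes was higher in both. Cdx2, Lats1 and Amotl2 differed in direction between the embryos. Eomes was the gene with a positive difference, 0.98.

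Embryo 1 cell 1 held the highest value of 5 of the 10 genes: Cdx2, Gata3, Tfap2c, Tead4 and Amotl2. Of all 13648 genes, 16% had their highest value in that cell. Cdx2 stood there at 9.80 TPM against at most 1.22 elsewhere, Amotl2 at 15.02 against at most 8.72, and Tead4 at 161 against at most 111. Tfap2c was at 107 there against at most 103. In embryo 2 cell 2, Yap1, Wwtr1 and Lats1 were highest. Both cells belong to numbers 11 to 17, and they had the most genes above 1 TPM, with 13319 and 12978 against 11058 to 12411 in the other 7. The part of this in the result was not tested. The cell was singled out after its values had been seen.

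The shares of transcript forms varied widely between cells of the same embryo. Forms with the Yap1 exon of 48 bases took 36.8% of the TPM of the 3 forms compared, summed over cells. Yap1-210, 1 of these forms, spans chr9:7934497-8001703, inside the spans of Yap1-201 and Yap1-202. This share is therefore not that of the exon alone. In embryo 2 cell 2, Yap1-210 was at 63.4 TPM, Yap1-201 at 23.4 and Yap1-202 at 51.2. In embryo 1 the share was 37.99, 19.4 and 0% in cells 1, 6 and 7. In embryo 2 it was 62.9, 36.6, 29.9, 78.3, 6.31 and 29.6% in cells 2, 3, 5, 6, 7 and 8. The embryos overlapped, at 19.1 ± 19.0% (SD, 3 cells) and 40.6 ± 25.9% (SD, 6 cells).

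Tead4-201, with the exon of 129 bases, took 45.1% of its sum with Tead4-203 over cells. Its share was steadier, with 21.7% as the lowest and 66.2% as the highest. Because the 2 forms also differ at both ends, this share is not that of the exon alone. Cells with numbers 11 to 17 had 54.7 ± 10.0% (SD, 3 cells) and those with numbers 20 to 25 had 38.6 ± 10.8% (SD, 6 cells), and the embryos were at 42.7 ± 7.57% and 44.6 ± 15.3%. No cell used a single Tead4 form alone. Whether Tead4 was read at 41.2 or 161 TPM, both forms were present.

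Tfap2c-206 took 80.6% of the sum of Tfap2c-206 and Tfap2c-201, from 64.7 to 100% in single cells, with 93.1 ± 6.83% in embryo 1 and 75.1 ± 13.9% in embryo 2. The cells overlapped, since embryo 2 cell 7 was at 100%. Embryo 1 cell 7 was also at 100% of these 2 forms, but Tfap2c-204, left out of the sum, was at 38.65 TPM there against 41.4 for Tfap2c-206. Wwtr1 behaved differently from these genes. Wwtr1-202 begins further upstream than Wwtr1-201, whose start lies within the first coding exon of Wwtr1-202. It took 22.9% of the sum of both, but 5 cells were at 0% and 2 cells at 100%. Only cells 2 and 3 of embryo 2 lay between, at 37.8 and 40.1%, and both have numbers 11 to 17. Every cell with numbers 20 to 25 was at 0 or 100%. The 2 forms differ at their 5′ ends, and scRR1, the protocol of numbers 20 to 25, covered embryo transcripts more towards their 3′ ends. The part of the protocol in these shares was not tested. All of the signal of Lats1 was assigned to Lats1-202, and Lats2-201, the form with the longest coding sequence, took 59.8% of the Lats2 signal. The tables do not give the reads behind these shares, so no counting error is attached to them.

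The DNA of the same cells gave the replication state of 8 of the 10 loci in bins of 40 kb. Tead4 and Lats1 lie on chromosomes that the bin table does not hold. All 8 loci carried the unreplicated score in the 3 cells of embryo 1, as nearly all of their genome did, which for cells of uniform copy number does not tell G1 from G2/M. In embryo 2, 7 of the 8 loci were replicated in all 6 cells, and Wwtr1 was replicated in 5 and unreplicated in cell 6, the cell with the lowest replicated share of the genome (62.4%). Wwtr1 RNA was also lowest in cell 6 of embryo 2, at 6.76 TPM, and the 5 other cells exceeded it by 1.43 on the log2 scale, with an SD between them of 0.60. Yap1 was lowest in that cell too, at 27.1 TPM, with its locus replicated, and Lats2 was listed at 0 there. That cell also had the fewest genes above 1 TPM, 11058, and the part of this in the result was not tested.

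The rest of the pathway was read from lists of named genes, chosen with earlier results of these data known. The list of the Hippo kinase core and upstream genes held 27 genes, and in 16 of them the mean log2(TPM + 1) was 3 or more, the level required for the counts that follow. None was 2-fold higher in embryo 2, and 1 was lower: Amot, an angiomotin and LATS partner, by -1.03, named after its value was seen. Of the 6860 genes at that level, 6.05% were 2-fold lower and 4.83% higher. The median of the list was 0.29, against -0.04 for all of these genes. The highest by mean log2(TPM + 1) were Strn3 and Slmap, parts of the phosphatase complex that counters the MST kinases, and Taok1, a kinase that activates them. Strn3 ranged from 51.5 to 88.4 TPM in embryo 1 and 68.7 to 194 in embryo 2, Taok1 from 46.4 to 111 and 56.3 to 161, and Slmap from 37.2 to 88.1 and 51.0 to 81.9. The atypical cadherins Fat4 and Dchs1 were listed at 0 in all 9 cells, while Fat1 reached 26.6 TPM.

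Tead4 was the leading member of its family. Tead1 ranged from 9.59 to 24.1 TPM in embryo 1 and 1.33 to 18.4 in embryo 2, Tead2 from 8.56 to 15.5 and 1.71 to 17.1, and Tead3 did not exceed 1.91 TPM. Every cell thus held more Tead4 than any other TEAD gene. Of the cofactors, Vgll4, which competes with YAP for TEAD, ranged from 0.38 to 9.86 TPM, and Vgll2 and Vgll3 were listed at 0. Of the 2 genes of this list at the level required, Tead1 and Tead2, neither was past 2-fold, and their median difference was -0.70.

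Of 9 known YAP-TEAD targets, 3 reached the level required, with a median difference of -0.61, and the median was 0.01 over the 6 with a mean above 1 TPM. Birc5, a survivin that is also a cell cycle gene, ranged from 48.6 to 102 TPM in embryo 1 and 50.9 to 93.4 in embryo 2. Myc was lower in embryo 2 by -1.38, at 10.4 to 67.7 TPM in embryo 1 and 7.38 to 15.4 in embryo 2, with overlap. Ajuba, a LATS inhibitor that is also in the kinase list, was at 11.1 to 17.1 and 3.81 to 20.8 TPM. Of the other targets, Axl and Areg were listed at 0 in all cells and Ankrd1 reached 0.35 TPM. Tgfb2 reached 4.34 TPM, Ccn2 9.98 TPM and Ccn1 11.1 TPM, and Ccn1 was above 1 TPM in 7 of the 9 cells.

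Of 21 further trophectoderm genes, 10 reached the level required. Lrp2, an endocytic receptor, was 2-fold higher in embryo 2, by 1.03, and 3 were lower: Hand1, a trophoblast transcription factor, by -1.76, the glucose transporter Slc2a1 by -1.90 and the sodium pump subunit Atp1b1 by -1.08, all named after their values were seen and all with overlapping cells. The median was -0.63. The highest by mean log2(TPM + 1) were Klf5, a factor needed for trophectoderm, at 228 to 443 TPM in embryo 1 and 141 to 331 in embryo 2, Fgfr2 at 38.1 to 50.9 and 16.4 to 45.7, and Dab2 at 3.25 to 95.6 and 22.7 to 85.5. Embryo 1 cell 1, the cell with the most Cdx2, also had the highest Krt18 (23.3 TPM), Slc2a1 (71.5) and Dab2 (95.6) of all cells, and was the only cell in which Krt19 was above 0, at 2.42 TPM. These were picked after their values were seen, and Krt18 and Krt19 are below the level required. Of the 10 genes at that level, 3 (Slc2a1, Dab2 and the junction gene Tjp1) peaked in this cell, against 16.9% of all genes at that level, and the other 7 peaked elsewhere. Krt8, in contrast, was highest in embryo 2 cell 2, at 20.0 TPM.

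The genes of the inner cell mass, the alternative fate, were expressed alongside. Of 15, 11 reached the level required, none was 2-fold higher in embryo 2 and 3 were lower. Klf2, a naive pluripotency factor, was lower by -1.72 and Tdgf1, a Nodal coreceptor, by -1.10, both with no overlap between the embryos. Nanog, named after its values were seen, was lower by -1.15 with overlap. In 3 of the 11 genes every cell of embryo 2 was lower, against 2.57% of the 6860 genes, and 1.14% of these were higher in every cell. The third was Tcfcp2l1, just short of 2-fold, at 69.7 to 106 TPM in embryo 1 and 25.6 to 68.4 in embryo 2. Pou5f1 ranged from 199 to 346 TPM in embryo 1 and 117 to 231 in embryo 2, Sall4 from 181 to 258 and 123 to 193, and Dppa5a from 2149 to 3102 and 1685 to 2355. Embryo 1 cell 1 held both the most Cdx2 and the most Pou5f1 (346 TPM) of the 9 cells, and Sox2 did not exceed 0.60 TPM in any cell.

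**Figure D3:**
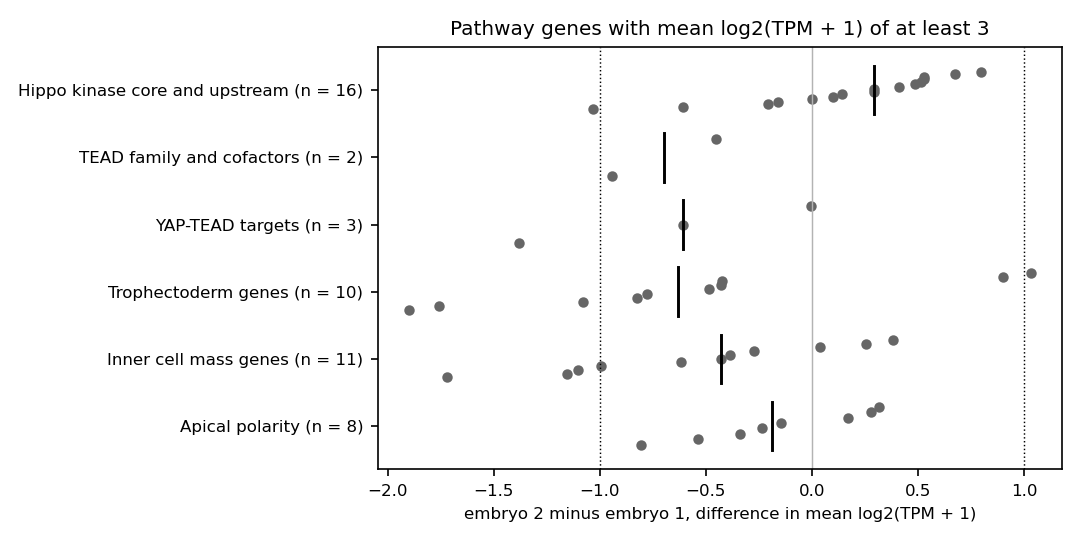
Difference of embryo 2 minus embryo 1 in mean log2(TPM + 1) for the genes of 6 lists whose mean was 3 or more, each point 1 gene, with the median of the list as a black bar and dotted lines at 2-fold. Genes of the kinase core and upstream list, which also holds antagonists of the kinases, lie mostly to the right of 0 (median 0.29). Trophectoderm and inner cell mass genes lie mostly to the left (medians -0.63 and -0.43).

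The polarity genes, which act upstream of the Hippo pathway at the apical surface, did not differ past 2-fold. All 11 had a mean above 1 TPM, 8 reached the level required, and their median difference was -0.19. Rhoa ranged from 101 to 159 TPM in embryo 1 and 96.4 to 180 in embryo 2, Cdh1, encoding E-cadherin, from 80.5 to 180 and 52.4 to 108, and Prkcz, encoding an atypical protein kinase C, from 21.8 to 40.9 and 19.7 to 77.2.

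The identity of the samples was read from marker genes. All 10 oocyte and cleavage-stage genes had a mean above 1 TPM, led by Dppa3 (1138 to 2169 TPM) and Khdc3 (411 to 752). Of the 8 genes of cumulus and granulosa cells, 5 were listed at 0 in all cells, and their sum was 0 in embryo 1 and at most 6.13 TPM in embryo 2, from Ptx3 in cell 6. The sum of the 5 sperm genes was at most 1.62 TPM and that of the 3 blood genes at most 0.71. The mitochondrial share of TPM ran from 4.28 to 6.77% in embryo 1 and from 5.98 to 18.2% in embryo 2, and rescaling to nuclear genes left Cdx2 as the only gene past 2-fold between embryos.

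The genes most like Cdx2, Tead4 and Yap1 were sought by Pearson's r of log2(TPM + 1) over the 9 cells among the 6860 genes, as a description without a test. Nearest to Cdx2 were Las1l and Ost4, both with r of 0.93, and 2310011J03Rik with 0.90, and without embryo 1 cell 1 these fell to 0.73, 0.72 and 0.46. Nearest to Tead4 were Ddhd2 (0.92), Echs1 (0.91) and Chd8 (0.91). Nearest to Yap1 were Ddx31 (0.97), Aven (0.96) and Ntmt1 (0.95). With 9 cells and 6860 genes searched, values of this size are the extreme of many, and the points share embryo and number range.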

How the data were processed

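The labels describe 26 samples, the RNA and DNA of 13 cells; 9 cells had columns and 4 were not analysed here. The authors set the reads of the cells to a common number and deposited TPM for genes and transcripts, from alignment to mm10 and RSEM with GENCODE annotation. They also deposited, per 40-kb bin, a replication state score (1 replicated, -1 unreplicated, 0 no data), which does not tell uniform genomes before and after S phase apart, after alignment with BWA 0.7.17-r1188. TPM keep no read depth, so no counting interval was computed. Each of the 3 tables held 14 other columns, which were not used. RNA headers repeat a single embryo and cell name, so RNA columns were assigned by assay and closing number. No 2 columns were equal.

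Differences are of mean log2(TPM + 1). The background was the 13648 genes with a mean above 1 TPM. Forms were compared within the transcript table, whose sums met the gene TPM within 0.01. A locus took the sign of the mean score of its bins. Python 3.11.15, numpy 2.4.6 and pandas 2.3.3 were used, and the scripts were tested on simulated data. Members and lists were chosen with earlier results of these data known. The genes named were all 10 members, the 3 genes of each list with the highest mean, those with a mean log2 of at least 3, past 2-fold and without overlap, and the 3 most like Cdx2, Tead4 and Yap1. Others are marked, or were named where a count or level singled them out.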

Additional observations from a re-analysis of the deposited data

Results flagged for a closer look

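In 3 genes, a cell of embryo 2 stood apart from the other 5, where the gap to the nearest cell was divided by the range of the 6 cells on the log2(TPM + 1) scale and compared with Dixon's 95% critical value of 0.625. For independent, normally distributed values, chance alone is expected to exceed it in about 1 of 20 groups, and 10 genes were examined. The 6 cells share 1 embryo and mix 2 number ranges, so that rate need not hold here. The value served only to flag cells, not as a test. For Amotl2, cell 8 (8.72 TPM) lay above the rest with a ratio of 0.917. On coding transcripts alone the other 5 cells were less even, from 0.11 to 2.80 TPM, with cell 8 at 7.50. The ratio was not computed on coding transcripts. For Yap1, cell 2 (139 TPM) lay above with 0.637. For Cdx2, cell 5 (1.22 TPM) had a ratio of 1, because the 5 other cells were listed at 0.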

How the results depend on the processing

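No paired analysis was possible because no result comes from a test and the cells of the embryos are not matched. The count of genes past 2-fold between embryos was 1 (Cdx2) after rescaling to nuclear or protein-coding genes and after centring. It was 3 with a pseudocount of 0.1 (Cdx2, Gata3, Lats2), 3 within numbers 11 to 17 (Cdx2, Gata3, Amotl2), and 2 on coding transcripts (Cdx2, Amotl2), an alternative chosen after seeing the data. Within numbers 20 to 25 it was 1, but the gene was Lats2. Leaving out single cells gave 0 to 2: 0 without embryo 1 cell 1, and 2 without embryo 1 cell 6 or cell 7 or embryo 2 cell 3. The median difference then ran from -0.46 (without embryo 2 cell 2) to -0.01 (without embryo 1 cell 1). It was 0.05 within numbers 20 to 25. Between number ranges the count was 3 (Cdx2, Gata3, Eomes) after rescaling to nuclear or protein-coding genes and with a pseudocount of 0.1. Eomes was then higher by 1.05, 1.21 and 2.31. After centring it was 2 (Gata3, Eomes), with Eomes at 1.21 and Cdx2 at -0.94. It was 4 in embryo 1 alone, and leaving out single cells gave 2 to 5, with 5 without embryo 2 cell 3, and medians from -0.90 to -0.51. In embryo 2 alone the median was -0.30. Leaving out embryo 1 cell 1 was not possible there, since embryo 1 has no other cell in the lower range. Cdx2 turned to 0.29 in embryo 2 alone. Of the listed pathway genes, 9 were past 2-fold among 49 at the level required, 15 among 72 with a mean above 1 TPM and 15 among all 89. A pseudocount of 0.1 raised the share of all genes past 2-fold from 18.4 to 34.2%. The causes were not tested. The reads were set to a common number per cell, but TPM hold no count per gene, which matters most for the genes near 1 TPM.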
